A study of Mus musculus with 12 samples.

Results

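The constitutive proteasome genes encode the parts of the 26S proteasome, the protease that unfolds and cuts proteins carrying a ubiquitin chain, together with the chaperones that assemble it and the proteins that cap or inhibit it. The members were chosen by name: each probe whose accession maps to Psma1 to Psma7, Psmb1 to Psmb7, Psmc1 to Psmc6, Psmd1 to Psmd14, Psme3, Psme4, Psmf1 or Psmg1 to Psmg4. Of the 41 symbols, 40 had a probe, and all 40 passed the filter on dim probes, out of 14633 genes with a symbol that did. Psmg4 had no probe by this match and is not analysed here. The family was proposed after the Wy-14643 differences on these arrays had been seen, so its counts describe the data and support nothing beyond them.

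The arrays measured RNA of whole liver from C57BL/6 mice with MycF/F alleles, in which the Myc gene is flanked by loxP sites, without or with an ERT2-Cre transgene. ERT2-Cre is a Cre recombinase held inactive until a tamoxifen-type ligand reaches it. Mice ate control chow or chow with 0.1% Wy-14643 for 2 days. Wy-14643 activates PPARα, which turns on fatty acid oxidation genes in hepatocytes. Each array read sample RNA in Cy5 against pooled liver RNA as the Cy3 reference, so every level below is a log2 ratio of sample to reference, and 0 means equal to the reference. On control diet there was 1 MycF/F array, with RNA labelled as pooled, and there were 4 MycF/F,ERT2-Cre arrays. On Wy-14643 there were 3 MycF/F and 4 MycF/F,ERT2-Cre arrays. The labels tag the first genotype as wild type and the second as knockout. The sources used here do not give the promoter driving Cre, the tamoxifen treatment, sex or age. The labels do not say whether samples came from different animals, and the p-values then cover only a spread among samples, which may be technical.

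The proteasome has a barrel-shaped core particle, the 20S, built of alpha rings that gate entry and beta rings that hold the active sites. A 19S cap made of ATPases and non-ATPase subunits recognises ubiquitin chains, removes them and threads the substrate into the core. Because the particle needs its subunits in fixed proportions, cells usually adjust these genes as a group, and the transcription factor NRF1 (gene Nfe2l1) is best known for raising them when proteolysis falls short. In the liver the proteasome disposes of misfolded and short-lived proteins, and interferon can replace the standard catalytic subunits with immunoproteasome versions.

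Promoter windows from RefSeq (GRCm38.p6), running from 250 bases before to 50 after a gene's start, were found for 34 of the 41 symbols, 2 of them with a second window. The antioxidant response element core TGANNNNGC, the sequence type bound by NRF1 and its relative NRF2, was searched on both strands. It occurred in 19 of these 34 genes and in 55.6% of the 36 member windows, against 41.3% of all 32851 windows of that length. The narrower form TGACNNNGC, which every match of the first pattern with a C after TGA also fits, occurred in 6 of the 34, namely Psmb5, Psmb6, Psmc6, Psmd12, Psmd9 and Psme4. It was in 16.7% of member windows and 12.4% of all windows. The CCAAT box occurred in 33.3% of member windows and 37.4% of all windows, and the E-box CACGTG, the site type bound by MYC, in 8.33% and 7.15%. The E-box genes were Psma4, Psmd9 and Psme3. These matches are letters only and show no binding. The 250 bases before the start of Psmb5 and Psmb6 are shown. Among the members with the narrower motif, they had the largest diet differences in MycF/F,ERT2-Cre livers. Both genes encode catalytic subunits. Both are written in the direction of the gene, with the match in capitals; Psmb5 lies at chr14:54617996-54618245 on the minus strand and Psmb6 at chr11:70525107-70525356 on the plus strand.
Psmb5: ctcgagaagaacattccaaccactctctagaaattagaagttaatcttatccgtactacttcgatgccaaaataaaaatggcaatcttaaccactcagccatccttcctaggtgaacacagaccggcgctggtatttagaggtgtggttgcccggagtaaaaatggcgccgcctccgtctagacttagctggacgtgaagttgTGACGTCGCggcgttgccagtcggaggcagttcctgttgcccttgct
Psmb6: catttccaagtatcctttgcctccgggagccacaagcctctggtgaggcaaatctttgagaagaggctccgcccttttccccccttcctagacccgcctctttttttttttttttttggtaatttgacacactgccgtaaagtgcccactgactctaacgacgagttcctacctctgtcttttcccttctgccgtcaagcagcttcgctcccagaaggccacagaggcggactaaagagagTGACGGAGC
The match in Psmb5 begins 47 bases before the gene start and that in Psmb6 begins 9 bases before it, both on the strand of the gene. Psmd4, the member with the largest diet difference, had a CCAAT box and none of the other 3 patterns in its window. The members lie on 16 chromosomes.

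All 40 members were well above background in Cy5 on all 12 arrays, and none was saturated. The scanner software marked many bright spots as outliers, and those spots were left out: 15 members had a value on all 12 arrays, 25 lacked at least 1, and Psmb7 kept 5 arrays. The gaps were concentrated on slide 1, where 15 to 19 members lacked a value per array, against 0 to 7 on slide 2 and 0 to 5 on slide 3. Slide 1 held Wy-14643-fed MycF/F replicate 1, MycF/F,ERT2-Cre control replicates 1 and 2 and Wy-14643-fed MycF/F,ERT2-Cre replicate 1. Where it matters, values with the marked spots kept are given as well.

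Over all 40 members with marked spots kept, the mean log2 ratio was -0.60 on the MycF/F control array and -0.52, -0.50, -0.65 and -0.69 on the MycF/F,ERT2-Cre control arrays. On Wy-14643 it was 0.13, 0.03 and 0.05 in MycF/F and 0.29, 0.14, 0.15 and 0.15 in MycF/F,ERT2-Cre livers. Every Wy-14643 array lay above every control array, and within Wy-14643 the MycF/F,ERT2-Cre arrays lay above the MycF/F arrays. The difference between these last groups, 0.18 ± 0.07 (SD, n = 4) against 0.07 ± 0.05 (SD, n = 3), is small beside that between the diets.

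**Figure D1:**
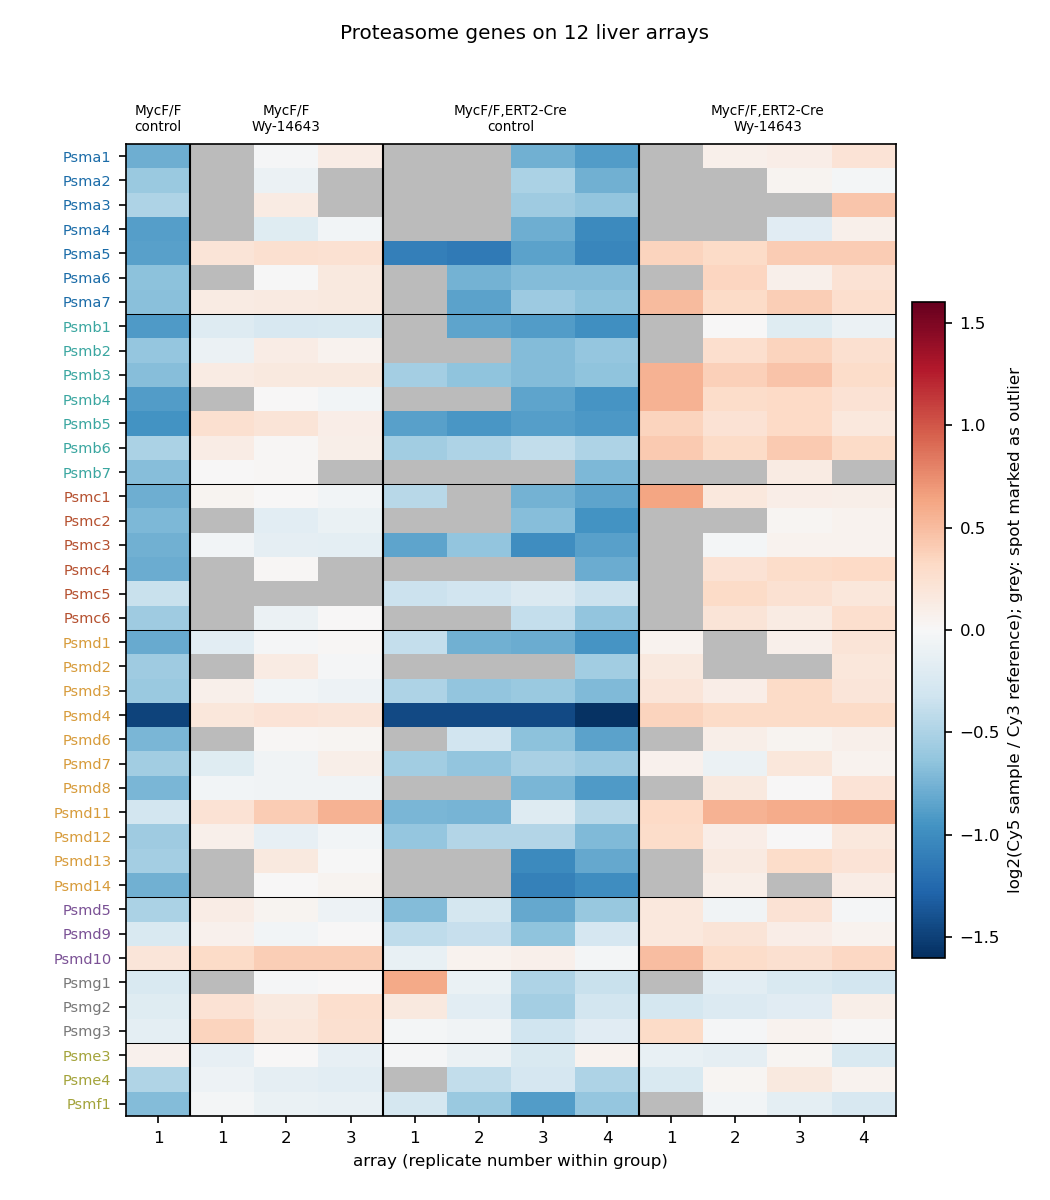
Log2 ratio of sample (Cy5) to pooled reference (Cy3) for the 40 members (rows, ordered and coloured by role) on the 12 arrays (columns, by group and replicate), blue below and red above the reference, with spots marked as outliers in grey. The 5 control columns are blue in nearly all subunit rows and the 7 Wy-14643 columns are near 0 or red, while the rows from Psmg1 to Psme3 show little of this contrast.

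Wy-14643 raised 36 of the 40 members and lowered none in MycF/F,ERT2-Cre livers (limma, Benjamini-Hochberg adjusted p under 0.05 over 25158 genes tested). The background in this comparison was 9.09% of all genes called higher and 7.19% called lower. The members' median log2 difference was 0.85, from -0.15 to 1.79, and that of all genes 0.03. All 31 members that are subunits of the 20S core or the 19S cap rose, by 0.55 to 1.79, with a median of 0.93. The member rule leaves out the cap proteins Sem1 and Adrm1, which differed by 0.06 ± 0.12 and 0.41 ± 0.10 (SE, limma adjusted p 0.807 and 0.0191). Of the 9 assembly chaperones, activators and inhibitor 5 rose, with a median of 0.35 over the 9. In 37 of the 40 members every Wy-14643 array left was above every control array left, which held for 11.8% of all genes. The exceptions were Psme3, Psmg1 and Psmg2. Only 15 members had 4 against 4 arrays, and 4 had a single array on 1 of the diets. With marked spots kept Psma3, Psmc2 and Psmd8 overlapped as well. MycF/F,ERT2-Cre control replicate 2, on slide 1, then read 0.38, 0.14 and -0.06 for them, against lowest Wy-14643 values of 0.07, 0.03 and -0.10. Nearest to the threshold on the called side were Psmb7 (adjusted p = 0.0349) and Psmf1 (0.0322), and on the other side Psmg3 (0.116). The spread among members was modest: 11 changed at least 2-fold, and Psmd4 alone reached 3.46-fold.

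The 7 alpha ring genes rose by 0.65 to 1.40 (median 0.98). Psma5 led them. Its control levels were -0.87 in MycF/F and -1.09, -1.13, -0.86 and -1.04 in MycF/F,ERT2-Cre livers, and its Wy-14643 levels were 0.20, 0.26 and 0.24 in MycF/F and 0.35, 0.30, 0.41 and 0.40 in MycF/F,ERT2-Cre livers. All control arrays were far below all Wy-14643 arrays, and the difference in MycF/F,ERT2-Cre livers was 1.40 ± 0.07 (SE, 4 against 4 arrays), or 2.63-fold (limma adjusted p = 2.37e-07). Psma7 stood at -0.67 in the MycF/F control and at -0.86, -0.58 and -0.66 in MycF/F,ERT2-Cre control replicates 2 to 4, against 0.13, 0.14 and 0.15 in MycF/F and 0.50, 0.30, 0.39 and 0.27 in Wy-14643-fed MycF/F,ERT2-Cre livers. No control array came near the Wy-14643 arrays, which differed by 1.07 ± 0.09 (SE, limma adjusted p = 1.34e-05). Psma2 had the smallest difference of the ring, 0.65 ± 0.14 (SE, limma adjusted p = 0.0262), on 2 against 2 arrays. Its values were -0.60 in the MycF/F control, -0.51 and -0.77 in MycF/F,ERT2-Cre control replicates 3 and 4, -0.10 in Wy-14643-fed MycF/F replicate 2, and 0.04 and -0.03 in Wy-14643-fed MycF/F,ERT2-Cre replicates 3 and 4. The diets did not overlap in the arrays that remained. Its call was lost when MycF/F,ERT2-Cre control replicate 4 or Wy-14643 replicate 3 or 4 was left out (0.52 to 0.68, limma adjusted p 0.0952 to 0.115). That of Psma4 was lost without Wy-14643 replicate 4 (0.72, limma adjusted p = 0.0514). A dimmer probe of Psma4 gave 0.89 ± 0.10 (SE, limma adjusted p = 0.000148). Psma3 rested on 1 against 2 arrays, and its difference of 1.04 became 0.63 with marked spots kept (limma adjusted p = 0.0514).

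The 7 beta ring genes rose by 0.81 to 1.23 (median 0.95), the narrowest range of the 4 subunit roles. Psmb4, a structural subunit, measured -0.90 in the MycF/F control and -0.84 and -0.94 in MycF/F,ERT2-Cre control replicates 3 and 4. On Wy-14643 it measured 0.01 and -0.05 in MycF/F replicates 2 and 3 and 0.55, 0.29, 0.32 and 0.23 in MycF/F,ERT2-Cre livers. The 3 groups of values, control, Wy-14643-fed MycF/F and Wy-14643-fed MycF/F,ERT2-Cre, did not overlap, and the diet difference in MycF/F,ERT2-Cre livers was 1.23 ± 0.11 (SE, limma adjusted p = 8.26e-05). Psmb5, which carries the chymotrypsin-like site, read -0.96 in the MycF/F control and -0.87, -0.93, -0.88 and -0.92 in MycF/F,ERT2-Cre control livers. On Wy-14643 it read 0.25, 0.20 and 0.11 in MycF/F and 0.35, 0.23, 0.32 and 0.17 in MycF/F,ERT2-Cre livers. Controls of both genotypes were alike and the drug-fed livers overlapped between genotypes. The difference was 1.17 ± 0.07 (SE, limma adjusted p = 5.25e-07). Psmb1, the smallest of the ring, rose by 0.81 ± 0.09 (SE, limma adjusted p = 0.000121). Its levels were -0.91 in the MycF/F control, -0.85, -0.89 and -0.98 in MycF/F,ERT2-Cre control replicates 2 to 4, -0.21, -0.26 and -0.24 in Wy-14643-fed MycF/F and 0.00, -0.19 and -0.10 in Wy-14643-fed MycF/F,ERT2-Cre replicates 2 to 4. It was low in all controls and closer to the reference on the drug. Of the other catalytic subunits, Psmb6 (caspase-like site) rose by 0.85 ± 0.07 on 4 against 4 arrays. Psmb7 (trypsin-like site) rose by 0.85 ± 0.18, on 1 against 1 array, or by 0.90 ± 0.10 with marked spots kept (SE; limma adjusted p = 4.56e-05 with them). Without Wy-14643-fed MycF/F replicate 1 or 2, which enter only through the estimate of its spread, the Psmb7 call was lost (limma adjusted p 0.0673 and 0.0791).

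The 6 ATPases of the 19S base, which unfold the substrate, rose by 0.55 to 1.08 (median 0.86). Psmc4 had the largest difference, 1.08 ± 0.14 (SE, limma adjusted p = 0.0033). It rested on 1 control array at -0.80, MycF/F,ERT2-Cre replicate 4, against 0.23, 0.29 and 0.32 in Wy-14643-fed MycF/F,ERT2-Cre replicates 2 to 4. Its MycF/F values were -0.80 on control diet and 0.02 on Wy-14643 replicate 2. The diets were well apart on these 6 arrays, the value with marked spots kept was 1.01, and a second, dimmer probe gave 0.78 (limma adjusted p = 0.109). Psmc1 read -0.78 in the MycF/F control and -0.44, -0.76 and -0.84 in MycF/F,ERT2-Cre control replicates 1, 3 and 4, and 0.04, 0.01 and -0.04 in Wy-14643-fed MycF/F. In Wy-14643-fed MycF/F,ERT2-Cre livers it read 0.63, 0.17, 0.10 and 0.09, so that replicate 1 stood well above the other 3. The difference was 0.93 ± 0.14 (SE, limma adjusted p = 0.00085). Psmc5 was the smallest of the 6, at 0.55 ± 0.08 (SE, limma adjusted p = 0.00142). Its control levels were -0.36 in MycF/F and -0.35, -0.31, -0.23 and -0.35 in MycF/F,ERT2-Cre livers, and Wy-14643-fed MycF/F,ERT2-Cre replicates 2 to 4 read 0.30, 0.24 and 0.18. All 3 MycF/F arrays on Wy-14643 were marked as outliers for this probe. The other probe of Psmc5 gave 0.75 for the diet in MycF/F,ERT2-Cre and 0.50 in MycF/F livers.

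The 11 members that are non-ATPase subunits of the cap rose by 0.62 to 1.79 (median 0.84). Their differences were the most spread of the 4 subunit roles, with an SD over genes of 0.33 against 0.17 to 0.23. Psmd4, a receptor for ubiquitin chains, stood at -1.48 in the MycF/F control and at -1.45, -1.44, -1.44 and -1.58 in MycF/F,ERT2-Cre control livers. On Wy-14643 it stood at 0.18, 0.22 and 0.19 in MycF/F and at 0.35, 0.30, 0.30 and 0.30 in MycF/F,ERT2-Cre livers. Replicates lay close together, the lowest control values of the family turned into values like those of the other members, and the difference was 1.79 ± 0.06 (SE, limma adjusted p = 2e-08). Psmd14, the deubiquitinase that strips the chain from the substrate, rose by 1.15 ± 0.11 (SE, 2 against 2 arrays, limma adjusted p = 0.00048), or 0.86 with marked spots kept. It read -0.77 in the MycF/F control, -1.08 and -1.0 in MycF/F,ERT2-Cre control replicates 3 and 4, 0.00 and 0.04 in Wy-14643-fed MycF/F replicates 2 and 3, and 0.09 and 0.12 in Wy-14643-fed MycF/F,ERT2-Cre replicates 2 and 4. Psmd7, its partner in the lid, had the smallest difference of the role, 0.62 ± 0.08 (SE, limma adjusted p = 0.000273). Levels of Psmd7 were -0.56 in the MycF/F control and -0.56, -0.63, -0.52 and -0.58 in MycF/F,ERT2-Cre control livers, and -0.20, -0.06 and 0.09 in MycF/F and 0.07, -0.09, 0.18 and 0.05 in Wy-14643-fed MycF/F,ERT2-Cre livers. The diets were apart and the genotypes overlapped on the drug. Psmd2, the scaffold subunit of the base, rose by 0.73 ± 0.15 (SE, limma adjusted p = 0.0233) on 2 against 1 array. That call was lost without Wy-14643-fed MycF/F,ERT2-Cre replicate 1 or replicate 4 (limma adjusted p 0.058 and 0.0915), and the difference was 0.77 with marked spots kept. A dimmer probe of Psmd2 gave 1.18 ± 0.10 (SE, limma adjusted p = 1.42e-05).

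All 3 chaperones of the 19S base rose in MycF/F,ERT2-Cre livers: Psmd5 by 0.68 ± 0.12, Psmd9 by 0.55 ± 0.09 and Psmd10, also known as gankyrin, by 0.35 ± 0.08 (SE, 4 against 4 arrays; limma adjusted p 0.00153, 0.000774 and 0.00842). Psmd5 read -0.51 in the MycF/F control, -0.69, -0.28, -0.82 and -0.61 in MycF/F,ERT2-Cre control livers, 0.12, 0.04 and -0.08 in Wy-14643-fed MycF/F and 0.17, -0.06, 0.23 and -0.02 in Wy-14643-fed MycF/F,ERT2-Cre. For Psmd9 the readings were -0.24 in the MycF/F control, -0.41, -0.37, -0.64 and -0.27 in MycF/F,ERT2-Cre control livers, 0.07, -0.04 and 0.01 in Wy-14643-fed MycF/F and 0.17, 0.20, 0.10 and 0.05 in Wy-14643-fed MycF/F,ERT2-Cre. Both genes were lower on every control array than on any Wy-14643 array. Psmd10 read 0.19 in the MycF/F control and -0.12, 0.06, 0.08 and -0.03 in MycF/F,ERT2-Cre control livers, against 0.30, 0.39 and 0.39 in MycF/F and 0.49, 0.29, 0.26 and 0.33 in Wy-14643-fed MycF/F,ERT2-Cre livers. Its control arrays were already near or above the reference, and its call was lost without slide 1 (0.27, limma adjusted p = 0.0562). The 2 probes of Psmd9 did not agree: the dimmer one gave 0.00 ± 0.11 (SE, limma adjusted p = 0.992), and the mean of both probes, 0.27, was not called.

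None of the 3 measured chaperones of the 20S core passed the test, and 1 of them was under an unadjusted p of 0.05. Psmg1 differed by -0.15 ± 0.22, Psmg2 by 0.07 ± 0.13 and Psmg3 by 0.24 ± 0.09 (SE; limma adjusted p 0.721, 0.782 and 0.116). Psmg1, which pairs with Psmg2 to start the alpha ring, read -0.24 in the MycF/F control, 0.61, -0.11, -0.49 and -0.36 in MycF/F,ERT2-Cre control livers, -0.02 and 0.01 in Wy-14643-fed MycF/F replicates 2 and 3 and -0.17, -0.25 and -0.29 in Wy-14643-fed MycF/F,ERT2-Cre replicates 2 to 4. One control array, replicate 1 on slide 1, was far above the rest, and without it the difference was 0.09. Psmg2 read -0.19 in the MycF/F control, 0.15, -0.17, -0.55 and -0.29 in MycF/F,ERT2-Cre control livers, 0.23, 0.16 and 0.27 in Wy-14643-fed MycF/F and -0.28, -0.22, -0.18 and 0.09 in Wy-14643-fed MycF/F,ERT2-Cre. The MycF/F,ERT2-Cre diets overlapped, and the MycF/F arrays on Wy-14643 were the highest of all. Psmg3 read -0.16 in the MycF/F control, -0.03, -0.06, -0.32 and -0.18 in MycF/F,ERT2-Cre control livers, 0.35, 0.18 and 0.25 in Wy-14643-fed MycF/F and 0.30, -0.02, 0.06 and 0.02 in Wy-14643-fed MycF/F,ERT2-Cre. Here the diets just failed to touch in MycF/F,ERT2-Cre livers. The order of the chaperones was not the same in MycF/F livers, where Psmg1, Psmg2 and Psmg3 differed by 0.24, 0.41 and 0.42 and Psmd5, Psmd9 and Psmd10 by 0.54, 0.26 and 0.17, none of them called. No test compared the chaperones of the core with those of the cap.

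Among the alternative caps and the inhibitor, Psme4 (the PA200 activator) rose by 0.39 ± 0.10 and Psmf1 (the PI31 inhibitor) by 0.45 ± 0.13 (SE; limma adjusted p 0.0212 and 0.0322). Psme3, the nuclear PA28 gamma activator, differed by -0.04 ± 0.09 (SE, limma adjusted p = 0.802). Psme4 read -0.48 in the MycF/F control, -0.40, -0.27 and -0.49 in MycF/F,ERT2-Cre control replicates 2 to 4, -0.08, -0.15 and -0.17 in Wy-14643-fed MycF/F and -0.24, 0.03, 0.15 and 0.06 in Wy-14643-fed MycF/F,ERT2-Cre. Psmf1 read -0.69 in the MycF/F control, -0.28, -0.60, -0.90 and -0.62 in MycF/F,ERT2-Cre control livers, -0.03, -0.11 and -0.12 in Wy-14643-fed MycF/F and -0.04, -0.16 and -0.26 in Wy-14643-fed MycF/F,ERT2-Cre replicates 2 to 4. In both genes the highest control came close to the lowest drug value. The Psme4 call was lost without any of 5 of the MycF/F,ERT2-Cre arrays (control replicates 2 and 4, Wy-14643 replicates 2 to 4; 0.34 to 0.38, limma adjusted p 0.0551 to 0.0819). The Psmf1 call was lost without any of 6, control and Wy-14643 replicates 2 to 4 (0.35 to 0.50, limma adjusted p 0.0531 to 0.122). Other probes of Psme4 gave 0.51 and 0.85, both called (limma adjusted p 0.0162 and 0.000152). Those of Psmf1 gave 0.29 and 0.35, neither called (limma adjusted p 0.0925 and 0.085). Psme3 read 0.07 in the MycF/F control, -0.02, -0.10, -0.25 and 0.05 in MycF/F,ERT2-Cre control livers, -0.13, 0.00 and -0.13 in Wy-14643-fed MycF/F and -0.12, -0.15, 0.03 and -0.25 in Wy-14643-fed MycF/F,ERT2-Cre. All 4 groups of Psme3 lay around the reference.

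**Figure D2:**
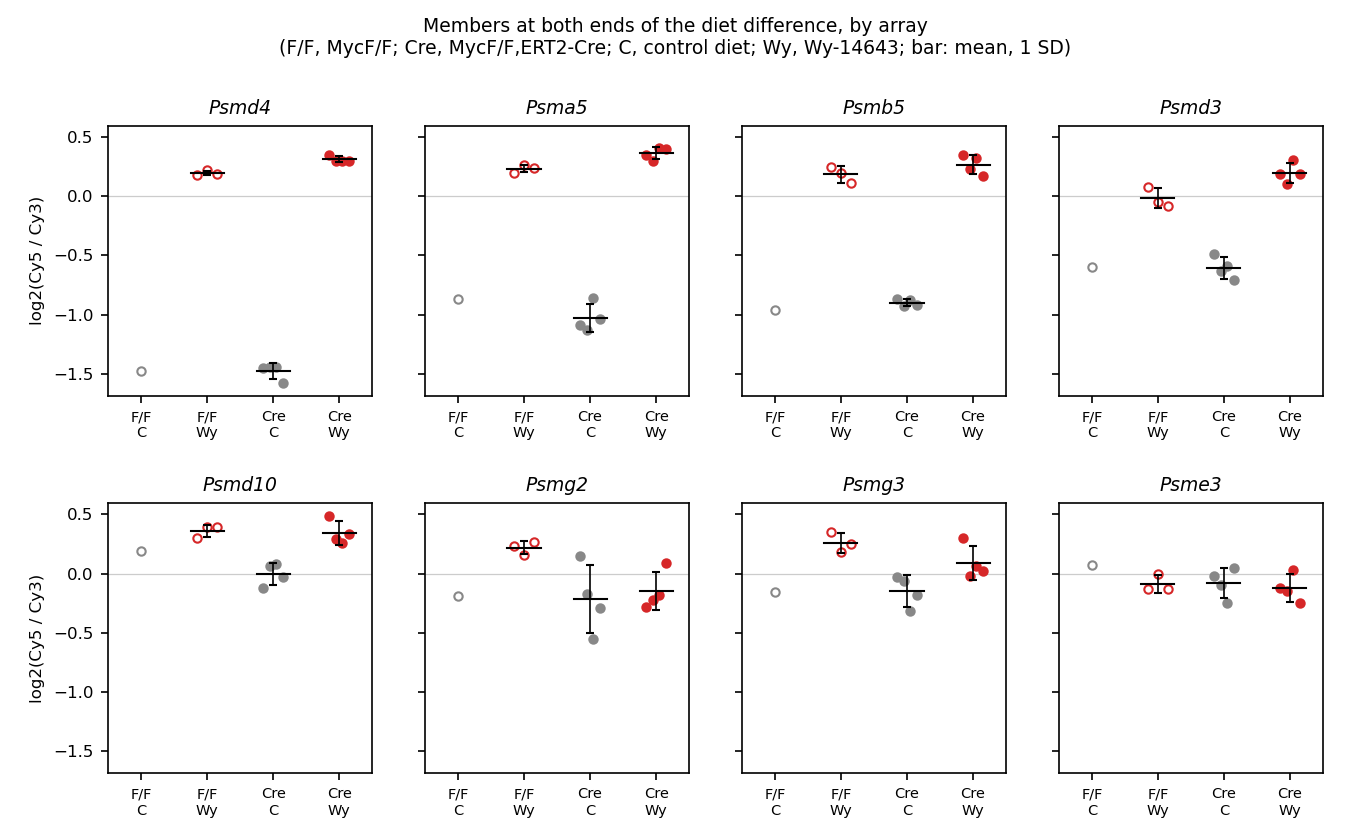
Log2 ratio of sample to reference on each array for 8 members by group (open, MycF/F; filled, MycF/F,ERT2-Cre; grey, control diet; red, Wy-14643), with the mean and 1 SD where a group has over 1 array. Psmd4, Psma5, Psmb5 and Psmd3 separate fully by diet in both genotypes, Psmd10 rises from a higher start, and Psmg2, Psmg3 and Psme3 show small or no separation in MycF/F,ERT2-Cre livers.

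With the marked spots left out, the members' median diet difference in MycF/F,ERT2-Cre livers was 0.75 on slide 1 (17 of 19 above 0), 0.85 on slide 2 (32 of 32) and 0.92 on slide 3 (39 of 40). The medians of all genes were 0.05, 0.01 and 0.03. With marked spots kept, the medians of the 40 members were 0.84, 0.85 and 0.91, with 37, 40 and 39 above 0. Of all genes, 57.4%, 51.6% and 55.6% were then above 0. These values rest on 1 or 2 arrays per diet and carry no test. Of the 12 members with more than 1 probe, the probes differed in sign for Psmd9 alone in this diet comparison. Their differences spread by a median of 0.18. Other ways of scaling gave fewer calls, among the members and among all genes: with median centring in place of loess 21 members were called higher (median 1.1), and from Cy5 alone 14 (median 0.81), while 2.4% and 2.44% of all genes were called higher. Psmg1 and Psmg2 from Cy5 alone, and Psme3 under median centring, turned sign. Of all calls in either direction, the share that were higher was 55.8%, and 68.1% under median centring.

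In MycF/F livers the diet comparison has 3 arrays against the single control array, which is assumed to vary like the other groups. Of 39 members that could be tested 19 rose and none fell (limma adjusted p under 0.05; background 3.23% of all genes higher and 3.24% lower). The median difference was 0.65 (all genes 0.00), and 38 of the 39 were above 0. All 19 were subunits: 10 of 14 core members and 9 of 16 testable cap members. Psmd4 again led with 1.67 ± 0.11 (SE, 3.19-fold, limma adjusted p = 8.73e-06), followed by Psmb5 with 1.15 ± 0.11 (limma adjusted p = 9.29e-05) and Psma5 with 1.11 ± 0.12 (limma adjusted p = 0.000191). None of the 9 chaperones, activators and inhibitor passed the test here, with 4 under an unadjusted p of 0.05. The count depends on the array and the scaling: it was 12 without Wy-14643-fed MycF/F replicate 2, 10 without replicate 3, 1 with median centring, 4 from the deposited log ratios and 2 from Cy5 alone, with medians from 0.64 to 0.81. In the same order, 2.23%, 2.14%, 0.466%, 2.19% and 0.61% of all genes were called higher.

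**Figure D3:**
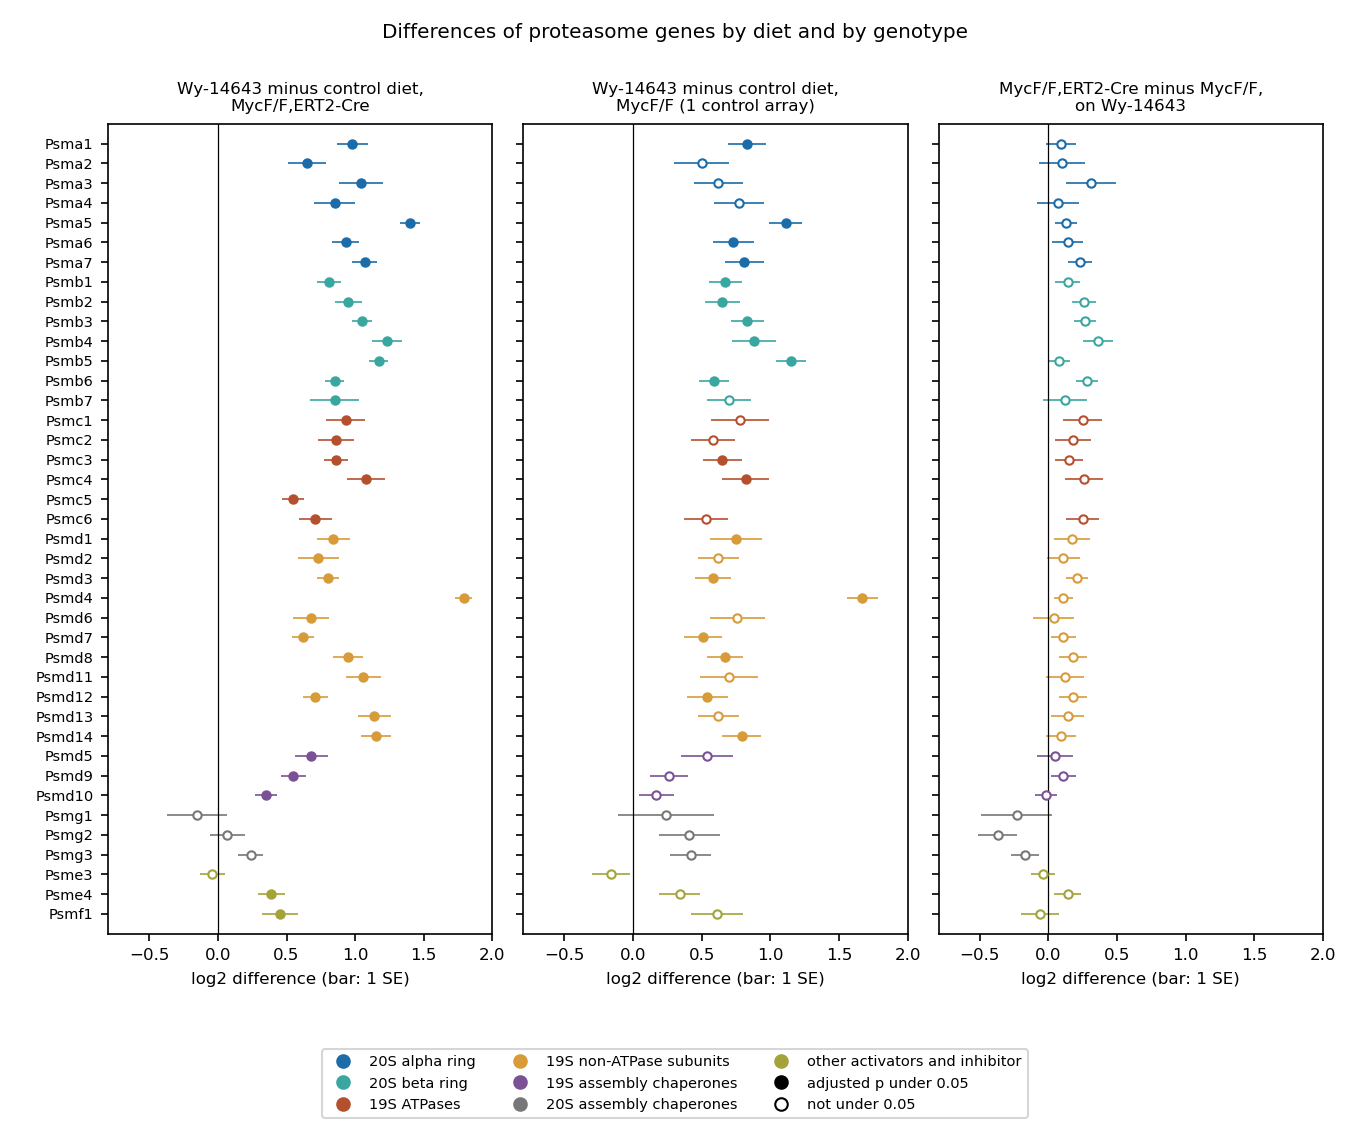
Log2 difference with 1 SE for each member by Wy-14643 in MycF/F,ERT2-Cre livers (left), by Wy-14643 in MycF/F livers (middle) and by genotype on Wy-14643 (right), coloured by role; filled points have an adjusted p under 0.05. Member subunits of the core and cap have medians of 0.93 on the left and 0.70 in the middle, with Psmd4 far to the right in both. The genotype differences are mostly small, above 0 and open.

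The genotype comparison on Wy-14643 asks whether the members differ with the ERT2-Cre transgene under the drug. Myc itself was lower with ERT2-Cre on the drug at all 3 of its probes, with no overlap between the genotypes: the probe with 10 spots read 0.22 in the MycF/F control, 0.52 to 0.88 in Wy-14643-fed MycF/F, -1.06 to -0.22 in MycF/F,ERT2-Cre control and -1.21 to -0.96 in Wy-14643-fed MycF/F,ERT2-Cre livers. The third and brightest Myc probe read 0.57, 0.50 to 0.61, 0.00 to 0.67 and -0.07 to 0.05 in these groups, and so overlapped on control diet alone. Its difference on the drug was -0.57 ± 0.16 (SE, limma adjusted p = 0.26). Where the probes lie relative to the floxed exons was not determined. No member passed the test among 39 (background 0.0199% of genes higher and 0.0835% lower by limma), and 7 had an unadjusted p under 0.05: Psma7, Psmb2, Psmb3, Psmb4, Psmb6 and Psmd3, which were higher in MycF/F,ERT2-Cre livers, and Psmg2, which was lower. The median difference was 0.13 against 0.02 for all genes, and 33 of 39 members lay above 0, as did 56.7% of all genes. All 30 testable member subunits were above 0, by 0.04 to 0.36, and all 3 chaperones of the core were below it. With marked spots kept 30 of 31 subunits were above 0, and Psma4 was at -0.09. Of the 12 members with more than 1 probe, the probes differed in sign for 4 here. Among them were the subunits Psmd14 and Psmd7, whose dimmer probes gave -0.03 and -0.02. This comparison uses the same MycF/F,ERT2-Cre and MycF/F drug arrays as the diet comparisons.

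Roles were not compared by a test. The beta ring and the ATPases had medians of 0.26 and 0.25, and the beta ring ran from 0.08 for Psmb5 to 0.36 for Psmb4. Psmb6 read 0.12, 0.02 and 0.09 in MycF/F and 0.42, 0.30, 0.42 and 0.30 in Wy-14643-fed MycF/F,ERT2-Cre livers, against -0.51 in the MycF/F control and -0.56, -0.49, -0.39 and -0.50 in the MycF/F,ERT2-Cre controls. The genotypes were apart on the drug and alike without it, with a difference on Wy-14643 of 0.28 ± 0.08 (SE, limma adjusted p = 0.203). Psmb3 read 0.13, 0.15 and 0.16 in MycF/F and 0.55, 0.38, 0.46 and 0.29 in Wy-14643-fed MycF/F,ERT2-Cre livers, with -0.68 in the MycF/F control and -0.55, -0.65, -0.69 and -0.65 in the MycF/F,ERT2-Cre controls. Psmb2 read -0.09, 0.12 and 0.06 in MycF/F and 0.27, 0.36 and 0.25 in Wy-14643-fed MycF/F,ERT2-Cre livers (replicates 2 to 4), with -0.62 in the MycF/F control and -0.70 and -0.62 in MycF/F,ERT2-Cre control replicates 3 and 4. Both separated by genotype on the drug, by 0.27 ± 0.08 and 0.26 ± 0.09 (SE; limma adjusted p 0.247 and 0.424). Psmb4, listed above, differed by 0.36 ± 0.11 (limma adjusted p = 0.309), and Psmb5 by 0.08 ± 0.08 (limma adjusted p = 0.916). Psma3 differed by 0.31 ± 0.18, on the single values 0.44 in Wy-14643-fed MycF/F,ERT2-Cre replicate 4 and 0.13 in Wy-14643-fed MycF/F replicate 2; its controls were -0.49 in MycF/F and -0.57 and -0.63 in MycF/F,ERT2-Cre replicates 3 and 4. With marked spots kept the Psma3 difference was 0.06. Psmg2 had the largest difference of all, -0.37 ± 0.14 (SE, limma adjusted p = 0.47), with every MycF/F,ERT2-Cre array below every MycF/F array on the drug.

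In 22 of 39 members every MycF/F,ERT2-Cre array on Wy-14643 was above every MycF/F array, against 7.25% of all genes. Many of these rested on few arrays: of the 15 members with values on all 12 arrays it held for 5, Psma5, Psmb3, Psmb6, Psmd3 and Psmd4. The members' median was 0.14 within each of the 3 slides (all genes 0.02), over 19, 32 and 35 members and on 1 or 2 arrays per genotype. With marked spots kept, over all 40 members, it was 0.18, 0.15 and 0.11 on slides 1, 2 and 3. The genotype difference did not hold in Cy5 alone, where the median was 0.02 and 21 of 39 members were above 0. On the control diet no member was called (background 0% in both directions), 1 of 40 had an unadjusted p under 0.05, and the median difference between genotypes was -0.01. The difference between the diet effects of the genotypes (interaction) was called for no member of 39 (background 0%), with 1 at an unadjusted p under 0.05 and a median of 0.17 against 0.04 for all genes; from Cy5 alone the median was -0.01.

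The members with the largest interaction were Psmd13, Psma3, Psmg1 and Psmd11. Psmd13, a lid subunit, read -0.55 in the MycF/F control, -1.02 and -0.82 in MycF/F,ERT2-Cre control replicates 3 and 4, 0.16 and -0.01 in Wy-14643-fed MycF/F replicates 2 and 3 and 0.14, 0.29 and 0.22 in Wy-14643-fed MycF/F,ERT2-Cre replicates 2 to 4. Its MycF/F,ERT2-Cre controls were lower than the single MycF/F control, and its interaction of 0.51 ± 0.19 fell to 0.09 with marked spots kept. Psmd11, also of the lid, read -0.30 in the MycF/F control, -0.73, -0.75, -0.21 and -0.45 in MycF/F,ERT2-Cre control livers, 0.23, 0.41 and 0.56 in Wy-14643-fed MycF/F and 0.32, 0.56, 0.59 and 0.62 in Wy-14643-fed MycF/F,ERT2-Cre. The low MycF/F,ERT2-Cre controls, replicates 1 and 2, were both on slide 1, and the interaction was 0.36 ± 0.24. That of Psma3 was 0.42 ± 0.24, or -0.14 with marked spots kept, and that of Psmg1 was -0.39 ± 0.41 (SE; limma adjusted p = 1 for all 4).

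The standard catalytic subunits and their immunoproteasome counterparts moved apart. Psmb8, Psmb9 and Psmb10, which take the places of Psmb5, Psmb6 and Psmb7, fell by 1.21 ± 0.27, 1.28 ± 0.28 and 1.28 ± 0.08 in Wy-14643-fed MycF/F,ERT2-Cre livers (SE; limma adjusted p 0.0128, 0.00808 and 1.07e-06). In MycF/F livers the differences were -1.79, -1.38 and -1.48, of which that of Psmb9 was not called (limma adjusted p = 0.113). The log2 ratio of Psmb5 less that of Psmb8 on the same array was -1.57 in the MycF/F control, -2.64 to -1.42 in MycF/F,ERT2-Cre controls, 0.91 to 1.78 in MycF/F and 0.46 to 1.30 in Wy-14643-fed MycF/F,ERT2-Cre livers, marked spots kept. For Psmb6 less Psmb9 the values were -0.97, -2.33 to -0.54, 0.83 to 1.29 and 0.60 to 1.24, and for Psmb7 less Psmb10 they were -1.31, -1.51 to -1.29, 0.71 to 1.08 and 0.62 to 1.16. All 3 pairs were below 0 on every control array and above 0 on every Wy-14643 array. Because each value is relative to the reference, these differences show a change between diets and not which subunit was more abundant, and they were not tested. Psme1 of the PA28 cap rose by 0.34 ± 0.08 (limma adjusted p = 0.0107), and Psme2 differed by -0.04 ± 0.09.

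**Figure D4:**
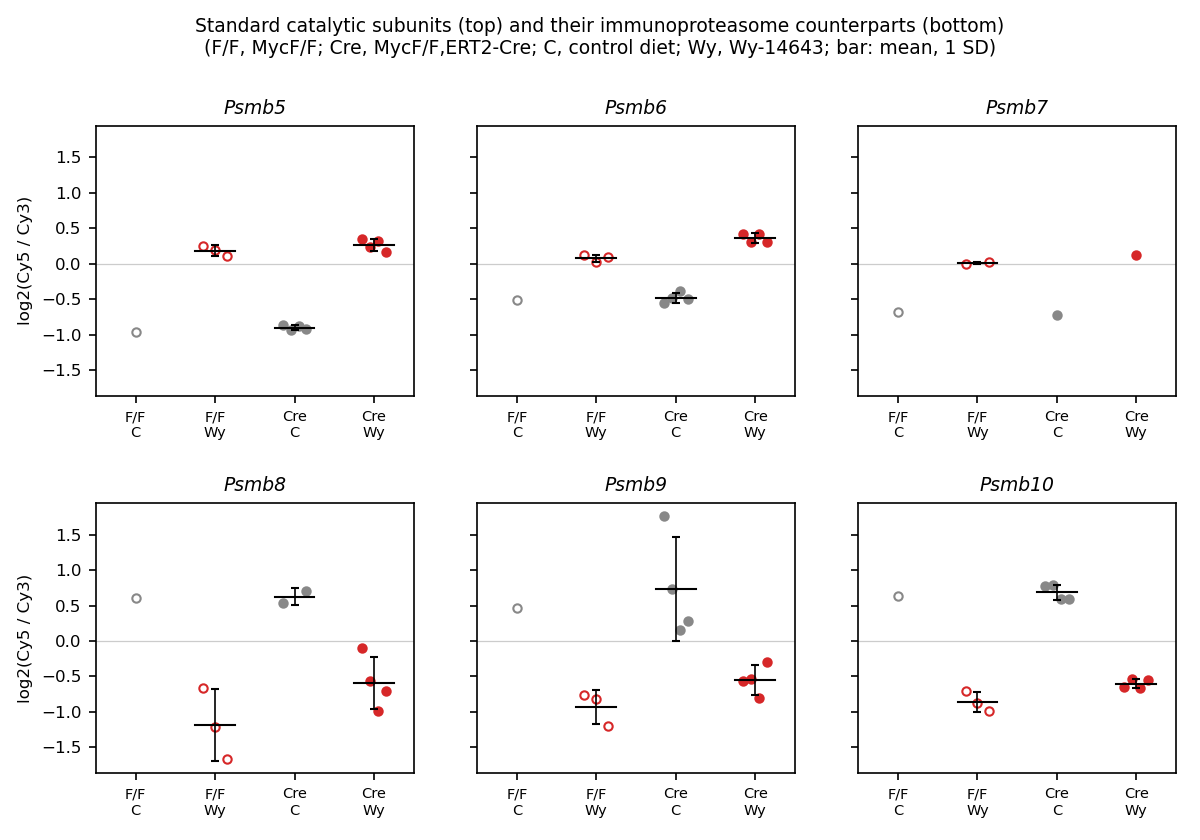
Log2 ratio of sample to reference on each array for the standard catalytic subunits (top) and the immunoproteasome subunits that replace them (bottom) by group, with the mean and 1 SD where a group has over 1 array; spots marked as outliers are left out. The top row goes from below 0 on control diet to 0 or above on Wy-14643, and the bottom row goes the other way in both genotypes.

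Of the transcriptional regulators of proteasome genes, 3 of 10 rose in Wy-14643-fed MycF/F,ERT2-Cre livers and none fell: Nfe2l1 by 0.96 ± 0.10, Keap1, which holds NRF2 in check, by 0.39 ± 0.08, and Ngly1, the deglycosylase that acts on NRF1, by 0.36 ± 0.09 (SE; limma adjusted p 0.000112, 0.0058 and 0.0194). Nfe2l1 read -0.90 in the MycF/F control, -0.84, -0.81 and -0.79 in MycF/F,ERT2-Cre control replicates 1, 3 and 4, 0.31 and 0.20 in Wy-14643-fed MycF/F replicates 2 and 3 and 0.29, -0.08, 0.24 and 0.12 in Wy-14643-fed MycF/F,ERT2-Cre. Its diets were far apart in both genotypes, and it was the only one of the 10 called in MycF/F livers (1.15 ± 0.16, limma adjusted p = 0.00188). Nfe2l2, which encodes NRF2, differed by 0.66 ± 0.23 without passing the test (limma adjusted p = 0.0916). A second Ngly1 probe gave 0.07 (limma adjusted p = 0.752). The share of all genes called higher was 9.09% in MycF/F,ERT2-Cre and 3.23% in MycF/F livers.

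Genes that deliver substrates to the proteasome rose with it in part. The background was 9.09% of all genes called higher in MycF/F,ERT2-Cre livers (median 0.03) and 3.23% in MycF/F livers (median 0.00). Of 10 testable p97 cofactors and shuttle factors, 6 rose in MycF/F,ERT2-Cre livers and none fell, with a median of 0.48. They include the shuttle receptor Rad23b (0.73 ± 0.08) and the p97 cofactors Nsfl1c (0.86 ± 0.09) and Nploc4 (0.78 ± 0.13; SE, limma adjusted p from 3.9e-05 to 0.00115). In MycF/F livers 3 of the 10 rose, among them Ufd1 by 0.61 and Nsfl1c by 0.59. A dimmer probe of Ufd1 gave -0.05 there and 0.24 in MycF/F,ERT2-Cre livers, and neither was called. Vcp, which encodes p97 itself, could not be tested. Of 11 proteins that belong to or bind the mature particle or help to mature it, 4 rose in MycF/F,ERT2-Cre and none in MycF/F livers, where 3 had an unadjusted p under 0.05. They were the deubiquitinase Usp14 (0.53 ± 0.08), the maturation factor Pomp (0.49 ± 0.09), Txnl1 (0.47 ± 0.10) and the ubiquitin receptor Adrm1 (0.41 ± 0.10; SE, limma adjusted p from 0.000457 to 0.0191). A dimmer probe of Adrm1 gave 1.06 in MycF/F,ERT2-Cre and 0.81 in MycF/F livers, and both were called (limma adjusted p 4.22e-05 and 0.00555). Sem1, in the same list, differed by 0.06 ± 0.12 in MycF/F,ERT2-Cre livers (SE, limma adjusted p = 0.807). Of the 6 genes for ubiquitin and its activating enzymes none was called in either genotype, and none had an unadjusted p under 0.05.

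Markers of the liver's cell types also differed between diets. Of all genes, 9.09% were called higher and 7.19% lower in MycF/F,ERT2-Cre livers, and 3.23% and 3.24% in MycF/F livers. All 6 PPARα target genes used as a check of the drug rose in MycF/F,ERT2-Cre livers, with a median of 3.94. Of the hepatocyte markers 4 of 6 were measured; 2 fell and none rose in MycF/F,ERT2-Cre livers, and their mean level was 0.62 to 0.86 on control diet and -0.23 to 0.07 on Wy-14643. Of the Kupffer cell and macrophage markers 4 of 6 fell, with a mean level of 0.13 to 0.92 against -0.42 to -0.24. Of the endothelial markers 1 of 5 fell, of the stellate cell and fibroblast markers 2 of 5, of the lymphocyte markers 2 of 5 and of the erythroid markers 2 of 2, and of the 4 neutrophil markers none was called, with 1 under an unadjusted p of 0.05. Of the 5 cholangiocyte markers 1 rose and 1 fell. In MycF/F livers 2 of the 4 hepatocyte, 2 of 5 testable Kupffer cell and macrophage and 1 of the 5 endothelial markers fell, and no other marker was called. Their part in the proteasome differences was not tested. In whole liver, fewer cells of a type and less RNA per cell cannot be told apart.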

How the data were processed

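Each of the 12 arrays is an Agilent 2-colour mouse array with 41174 probes on 45018 spots, scanned and read by the submitters; per the file headers the software was Agilent Feature Extraction 11.0.1.1. The deposited intensity values are median Cy5 and Cy3 signals and median local backgrounds per spot, per the file headers. The deposited log10 ratio of Cy5 to Cy3, corrected for background and dye by that software per the file headers, served only as an alternative. In R 4.3.3 with the packages limma (3.58.1) and data.table (1.17.8), intensities were corrected by normexp (offset 50) and the log2 ratios loess-normalized within arrays. Outlier-marked spots were dropped, and the remaining ones of each probe averaged. A probe was kept if well above background in Cy5 on at least 3 arrays (at least a share of 0.5 of its spots), which left 31861. Probes were named through their accessions in a RefSeq table of GRCm38.p6, which differs from the build of the array design, so probes were not placed on genes and cross-hybridisation to gene copies was not examined. Each gene was read by its brightest kept probe (25270 genes or unnamed probes).

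One mean per group was fitted with lmFit and eBayes to all 12 arrays (8 residual degrees of freedom), after the fit was tested on simulated data. Tests were two-sided, adjusted by Benjamini-Hochberg over all genes, with calls at an adjusted p under 0.05. Genes left with 1 array in a group, and the lone MycF/F control array, are assumed to vary like the rest. The number of arrays limits the precision; the ratio of median Cy5 signal to background was 2.64 to 4.82 over the arrays. No 2 arrays held identical values (largest correlation 0.895). The members and lists were chosen with earlier results of these data known. Values per array are printed, by rule, for the 2 members with the largest and the 1 with the smallest absolute diet difference of each role in MycF/F,ERT2-Cre livers, the 6 with the largest genotype difference on Wy-14643, the 4 with the largest interaction and any whose probes differ in sign. Alternatives changed background correction, normalization, channel, filters, outlier spots, probe summary, slide and replicate blocks and left out each array or slide. Promoters are RefSeq's, of GRCm38.p6. The values of 1 gene of the pathway lists are not reported here.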

Additional observations from a re-analysis of the deposited data

Results flagged for a closer look

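Of 39 groups of 4 arrays examined among the members for 1 array far from the others, 3 stood out, and chance flags about 1 in 20 such groups. On Wy-14643, Psmc1 read 0.63 on MycF/F,ERT2-Cre replicate 1, against 0.17 on the nearest array. Psmd4 read -1.58 on MycF/F,ERT2-Cre control replicate 4, against -1.45 on the nearest, and 0.35 on MycF/F,ERT2-Cre on Wy-14643 replicate 1, against 0.30. The Psmd4 gaps are small beside its diet difference of 1.79.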

How the results depend on the processing

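For Wy-14643 in MycF/F,ERT2-Cre livers the count of members called higher stayed within 1.5 times of 36 under 23 of 25 alternatives, of which Aquantile leaves ratios unchanged by construction. The others were median centring, with 21 and a median difference of 1.1, and Cy5 alone, with 14; no alternative called a member lower. The median was 0.75 within slide 1 and, chosen after seeing the data, 0.71 over only the 15 members measured on all arrays. For Wy-14643 in MycF/F livers the count of 19 became 1 under median centring (median 0.77), 4 with the deposited log ratios, 2 from Cy5 alone (median 0.81) and 29 without slide 1 (5.72% of all genes called higher), and the median was 0.54 over the 15 members. From Cy5 alone the medians were 0.02 for genotype on Wy-14643 and -0.01 for the interaction. Leaving out 1 array gave 30 to 36 members and medians of 0.77 to 0.86 in MycF/F,ERT2-Cre livers, the lowest median without MycF/F,ERT2-Cre control replicate 4, and 10 to 22 members and 0.62 to 0.65 in MycF/F livers. It gave 0 calls and medians of 0.12 to 0.14 for genotype on Wy-14643, -0.03 to 0.03 on control diet and 0.14 to 0.21 for the interaction. On leaving out 1 array, 6.62% to 9.12% of all genes were called higher by diet in MycF/F,ERT2-Cre and 2.14% to 3.68% in MycF/F livers. Leaving out the lone MycF/F control array could not be run. The cause of these changes was not tested.

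Replicate numbers are shared between groups. Of same-numbered pairs, 7 of 10 had deviations correlated over 0.1 (-0.1 to 0.45, median 0.17), against 11 of 30 others (median -0.13). All 13 pairs on the same slide were over 0.1 (0.11 to 0.45), against 5 of 27 on different slides. Same-numbered pairs on different slides had correlations of -0.1, 0.32, -0.07 and 0.02. The main fit took neither replicate number nor slide into account, and each was tried as a block. With the replicate number as a block, 34 of 39 members were called higher in MycF/F,ERT2-Cre livers (median 0.85) and 13 of 27 testable in MycF/F livers (median 0.68), with 0 calls and medians of 0.14 for genotype on Wy-14643, 0.03 on control diet and 0.14 for the interaction. With slide as a block the counts were 37 and 19, and with marked spots kept as well, added after seeing the data, 37 and 22. The replicate block called 10.3% of all genes higher by diet with the ERT2-Cre transgene and 3.01% without it. For the slide block these shares were 10.6% and 3.36%, and with marked spots kept as well 10.6% and 3.19%. The main fit had 9.09% and 3.23%.

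Signs of some uncalled differences turned under some alternatives, among them several of the largest for genotype on Wy-14643 and the interaction. For the diet in MycF/F,ERT2-Cre livers Psmg1 was 0.57 from Cy5 alone, 0.19 with the slide block, 0.09 with the replicate block, between -0.28 and 0.09 on leaving out 1 array, the highest without control replicate 1, 0.19 without slide 1 and 0.05 with marked spots kept and the slide block. Psmg2 was -0.20 from Cy5 alone, -0.04 without control replicate 3 and -0.01 without Wy-14643 replicate 4, and Psme3 was 0.03 under median centring and 0.00 without control replicate 4 or Wy-14643 replicate 4. For genotype on Wy-14643, Cy5 alone gave -0.57 for Psma3, -0.06 for Psmb6 and -0.05 for Psmb2. For the interaction it gave -0.33 for Psma3, 0.51 for Psmg1 and -0.43 for Psmd11, and Psma3 was -0.14 with marked spots kept.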
